A study of Mus musculus with 6 samples.

Results

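Haematopoietic signalling and cytoskeleton genes were examined in mouse white adipose tissue as a list of 38 genes, out of 22040 genes in the expression table. The list held pan-leukocyte kinases, adaptors, receptors, GTPase regulators, actin proteins, phagocyte oxidase subunits and lineage transcription factors, and it was built around Myo1f and Cyth4. These members were chosen by their measured levels: Myo1f and Cyth4 had been seen lower with Rb1 in the same 6 samples. The members' values in the 2 groups are therefore given as a description. Calls from tests over all genes are counted once, beside the share of all genes called, and again where the processing was varied. These calls support nothing. All 38 symbols matched a gene of the table, and all 38 passed the expression filter, with a lowest count of 53 in any sample. The series title connects ginsenoside Rb1, a saponin of ginseng, with myostatin and obesity, and the comparison asks how the leukocyte genes of the fat tissue stood after Rb1. The Rb1 group comprised 3 samples from mice given Rb1 intraperitoneally at 14 mg/kg per day. The CTR group comprised 3 samples from mice given saline by the same route. The labels name the tissue as white adipose and give neither strain, genotype, age, sex nor diet, and no fat depot or duration of dosing. They leave unsaid whether each sample came from its own mouse, so p-values reflect only how far these samples scatter, and some of that scatter may be technical.

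Fat tissue contains resident leukocytes, chiefly macrophages, beside adipocytes, endothelium and fibroblast-like progenitors. In leukocytes, activating receptors signal through Src-family and Syk kinases to adaptors, phospholipases and phosphoinositide kinases. These in turn feed exchange factors that load Rac and related GTPases, which drive actin assembly through the WASP and WAVE complexes and help to assemble the phagocyte NADPH oxidase. Many of the genes have a close relative that is expressed in most cell types, and the leukocyte form is switched on during blood cell development by transcription factors such as PU.1, the product of Spi1.

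Total counts lay between 15440339 and 24501446 reads per sample. The adipocyte markers were detected in all samples, 7 of 7 genes. Adipoq, the adiponectin gene, was at 1275 to 1511 FPKM in Rb1 samples and 1513 to 1672 FPKM in CTR samples. Its groups did not overlap, with Rb1 lower, which held for 10.5% of all genes tested. The 7 genes had a median log2 fold change of 0.12, with 3 negative, and Fabp4 was the most abundant. FPKM here is a level scaled to gene length and to the counted reads of the sample, and CPM is a count scaled to the counted reads alone. Markers of skeletal muscle, a tissue that can be carried along with fat, summed to 32.8 to 145 CPM in Rb1 samples and averaged 8854 ± 14770 CPM in CTR samples (SD, n = 3), where replicate 2 was at 25910 CPM. CTR replicates 1 and 3, at 302 and 350 CPM, were also above each Rb1 sample. All 8 muscle genes had negative log2 fold changes, and 6 did not overlap with Rb1 lower, against 10.5% of all genes tested. In whole tissue, fewer cells of a type and less RNA per cell cannot be told apart.

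The members' promoters are shown because the transcription factor PU.1 is itself encoded by a member and recognises a purine-rich sequence. RefSeq sequences on GRCm38.p6 covered 30 of the 38 members with 42 windows of 250 bases before an annotated start. Nckap1l, Csf1r, Lyn, Ncf4, Csf2rb, Spi1, Rac2 and Rgs1 had none. The letters GAGGAAGT or their complement ACTTCCTC occurred in 5 of 42 members' windows, or 11.9%, against 2.44% of 32851 windows of all genes. They occurred in 0 of 29 windows of the family partners described further on, too few windows to tell 0 from 2.44%. The 5 windows belonged to Arhgap25, with 2 of them, Inpp5d, Pik3cg and Vav1. For 35 of the 42 windows the start lay in an annotated transcript as printed. The Arhgap25 window that is not printed below was not among these. The last 120 bases before the start are printed 5′ to 3′ for 3 genes that carry the string close to the start and for Myo1f and Cyth4, which do not carry it there. Capitals mark the string.
Vav1, chr17:57278980-57279099, plus strand: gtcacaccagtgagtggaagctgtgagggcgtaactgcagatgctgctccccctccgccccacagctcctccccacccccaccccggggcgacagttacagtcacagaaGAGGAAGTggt
Inpp5d, chr1:87620192-87620311, plus strand: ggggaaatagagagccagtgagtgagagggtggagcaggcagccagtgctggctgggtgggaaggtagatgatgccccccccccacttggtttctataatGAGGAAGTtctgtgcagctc
Arhgap25, chr6:87533260-87533379, minus strand: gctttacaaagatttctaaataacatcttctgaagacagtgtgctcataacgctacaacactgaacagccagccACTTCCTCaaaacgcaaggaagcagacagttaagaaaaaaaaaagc
Myo1f, chr17:33555587-33555706, plus strand: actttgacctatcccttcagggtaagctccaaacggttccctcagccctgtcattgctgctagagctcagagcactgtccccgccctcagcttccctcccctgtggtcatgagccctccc
Cyth4, chr15:78596927-78597046, plus strand: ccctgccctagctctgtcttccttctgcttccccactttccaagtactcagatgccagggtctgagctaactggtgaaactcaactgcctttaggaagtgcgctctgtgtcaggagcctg

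The string began 11 bases before the start in Vav1, 20 in Inpp5d and 46 in Arhgap25. The Cyth4 window holds the string without its first letter, AGGAAGT, which was not counted. A match is a description of letters, not a site of binding, and the string was picked among several spellings of the ETS family's recognition sequence that were looked at. The shorter string GAGGAA or TTCCTC was common: 26.2% of the members' windows held it, against 23.3% of all windows. The GC box letters GGGCGG or CCGCCC, which overlap neither string, were in 33.3% of the members' windows and 32.7% of all windows, but in 23 of 29 windows of the family partners. TATAAA or TTTATA was in 7.14% of the members' windows and 12.4% of all windows.

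Most members were at a lower level in Rb1 samples than in CTR samples, with role medians of the log2 fold change from −0.36 for the receptors to −0.78 for the actin proteins. No difference between roles was tested. The median log2 fold change, Rb1 over CTR, was −0.68 over the 38 members, with quartiles of −0.86 and −0.43. The median over the 14093 genes tested was 0.01, with quartiles of −0.18 and 0.15. A negative log2 fold change was found for 36 of 38 members, against 48.7% of all genes tested, and 28 members lay below −0.5, against 10.3% of all genes. Levels in the 3 Rb1 samples were all below the 3 CTR samples for 27 of 38 members, against 10.5% of all genes, and all above for 0 members, against 5.48% of all genes. With edgeR's quasi-likelihood test and Benjamini-Hochberg adjustment over all genes, 0 members passed 0.05 as lower and 0 as higher. The background was 0% of genes lower and 0.0071%, which is 1 gene, higher. At an unadjusted p under 0.05, 29 members were lower, against 7.54% of all genes. DESeq2 called 23 members lower, against 2.14% of genes, and 0 members higher, against 0.579%. Since the list was drawn from this same contrast, nothing is read from these counts.

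**Figure D1:**
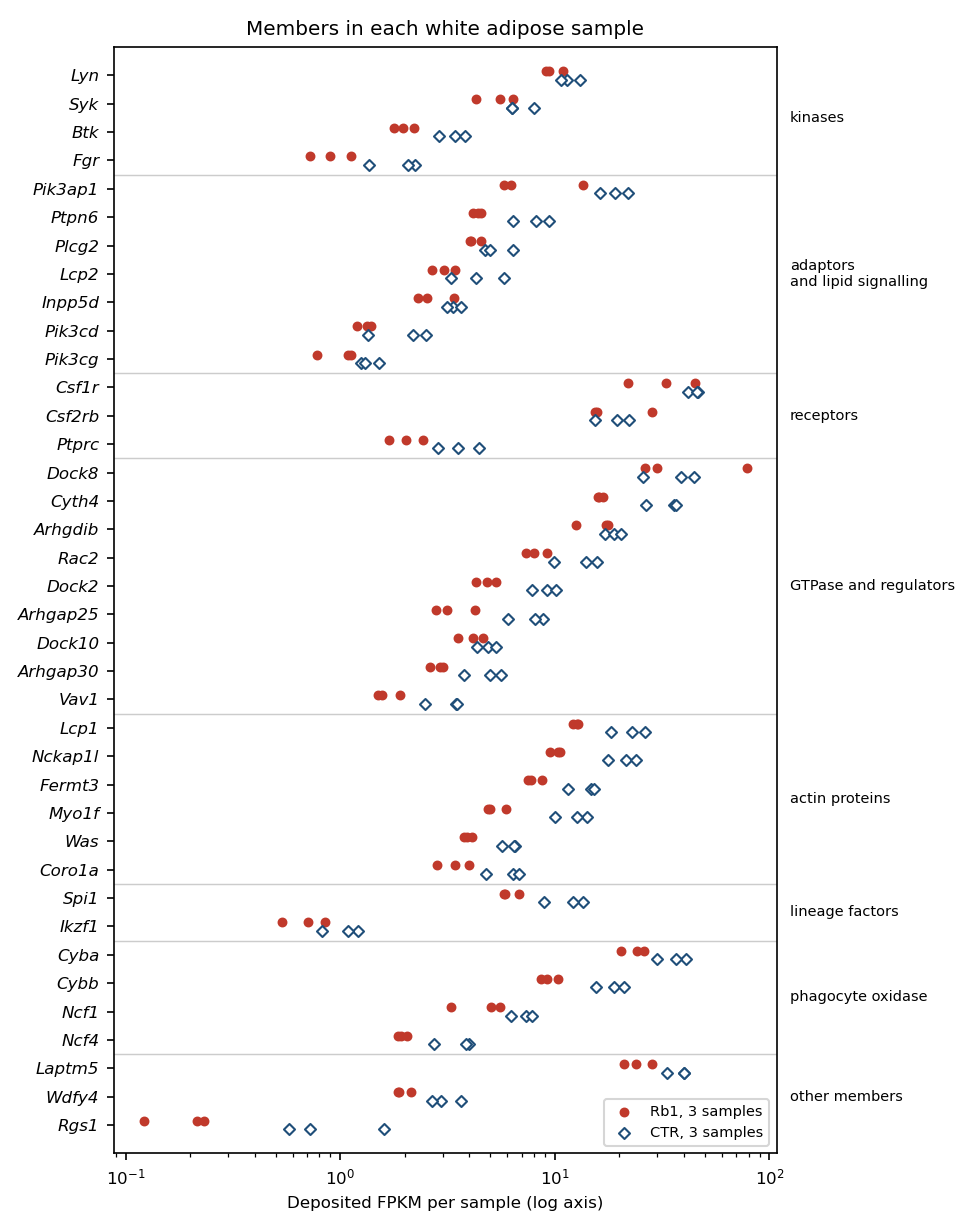
Deposited FPKM of the 38 members in each sample on a log axis, grouped by role, with filled circles for the 3 Rb1 samples and open diamonds for the 3 CTR samples. The circles lie left of all the diamonds for 27 members, and the exceptions include Dock8 and Csf2rb, where 1 Rb1 sample is the highest of all 6.

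The receptors held both signs. Ptprc, which encodes the pan-leukocyte phosphatase CD45, was at 2.43, 2.02 and 1.68 FPKM in Rb1 samples and 3.55, 4.42 and 2.85 FPKM in CTR samples. The groups did not overlap, and the log2 fold change was −0.78 ± 0.18 (SE, n = 3 each). Csf1r, the receptor for macrophage colony-stimulating factor, was at 21.9, 45.2 and 33.1 FPKM in Rb1 samples and 41.6, 46.4 and 45.8 FPKM in CTR samples. Rb1 replicate 2 lay within the CTR range, so the groups overlapped, and the log2 fold change was −0.36 ± 0.28. Leaving out Rb1 replicate 1 gave −0.10, and leaving out Rb1 replicate 2 gave −0.67. Csf2rb, the shared beta chain of several cytokine receptors, was at 28.5, 15.4 and 15.7 FPKM in Rb1 samples and 22.3, 19.4 and 15.3 FPKM in CTR samples. Its log2 fold change of 0.10 ± 0.23 was 1 of only 2 positive values in the list, and it was −0.20 without Rb1 replicate 1. Csf2rb has a close paralogue next to it, Csf2rb2, named for that reason, at 9.13 FPKM in Rb1 samples and 11.2 FPKM in CTR samples, and the handling of reads that fit both genes is not stated, so the values of both are uncertain.

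Among the tyrosine kinases, the Src-family members Fgr and Lyn stood at opposite ends. Fgr was at 1.12, 0.726 and 0.898 FPKM in Rb1 samples and 2.23, 2.07 and 1.36 FPKM in CTR samples, with no overlap. Its log2 fold change was −1.0 ± 0.23. Lyn, the most abundant of the 4 kinases, was at 10.9, 9.43 and 9.09 FPKM in Rb1 samples and 13.2, 11.4 and 10.7 FPKM in CTR samples. The groups overlapped in Rb1 replicate 1 and CTR replicate 3, and the log2 fold change was −0.22 ± 0.09. Btk, a Tec-family kinase of B cells and myeloid cells, averaged 1.98 ± 0.219 FPKM in Rb1 samples and 3.38 ± 0.466 FPKM in CTR samples (SD, n = 3 each). Syk, which docks on receptors that carry activation motifs, averaged 5.40 ± 1.06 FPKM in Rb1 samples and 6.87 ± 0.959 FPKM in CTR samples, with overlap.

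The adaptors, phosphatases and phosphoinositide enzymes all had negative log2 fold changes, with a median of −0.51. Of the 7, 4 did not overlap between the groups, with Rb1 lower, against 10.5% of all genes tested. Pik3ap1, an adaptor that couples receptors to phosphoinositide 3-kinase, was at 13.6, 6.27 and 5.79 FPKM in Rb1 samples and 19.0, 21.9 and 16.2 FPKM in CTR samples. Rb1 replicate 1 lay between the other Rb1 samples and the CTR samples. The log2 fold change was −1.14 ± 0.30, and −1.57 without that replicate. Inpp5d, the phosphoinositide phosphatase SHIP1, was at 2.29, 3.40 and 2.55 FPKM in Rb1 samples and 3.35, 3.66 and 3.14 FPKM in CTR samples. Rb1 replicate 2 lay inside the CTR range, and the log2 fold change was −0.25 ± 0.18.

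Ptpn6, the tyrosine phosphatase SHP-1 that restrains receptor signalling, averaged 4.35 ± 0.191 FPKM in Rb1 samples and 8.0 ± 1.49 FPKM in CTR samples. Lcp2, the adaptor SLP-76, averaged 3.06 ± 0.382 FPKM in Rb1 samples and 4.46 ± 1.28 FPKM in CTR samples, with overlap at CTR replicate 3. Plcg2, a phospholipase C of B cells and myeloid cells, averaged 4.22 ± 0.264 FPKM in Rb1 samples and 5.37 ± 0.908 FPKM in CTR samples. The catalytic subunits of leukocyte phosphoinositide 3-kinases were low. Pik3cg averaged 0.998 ± 0.189 FPKM in Rb1 samples and 1.36 ± 0.142 FPKM in CTR samples. Pik3cd averaged 1.31 ± 0.0982 FPKM in Rb1 samples and 2.02 ± 0.598 FPKM in CTR samples, and its groups overlapped at CTR replicate 3.

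The GTPase group ran from Arhgap25 at the low end to Dock8 at the high end, with a median log2 fold change of −0.71 over 9 genes. Cyth4, a cytohesin that loads ARF GTPases, lies on chromosome 15 at 78597047 to 78622019 on the plus strand. It was at 16.8, 15.9 and 16.1 FPKM in Rb1 samples and 35.9, 36.6 and 26.5 FPKM in CTR samples. The Rb1 samples were within 1 FPKM of each other, the lowest CTR sample was 1.58 times the highest Rb1 sample, and the log2 fold change was −0.98 ± 0.13. Arhgap25, which switches Rac off, was at 4.24, 2.79 and 3.15 FPKM in Rb1 samples and 8.85, 8.11 and 6.04 FPKM in CTR samples. Its log2 fold change of −1.14 ± 0.18 was the most negative of the group.

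Dock8, an exchange factor for Cdc42 needed for leukocyte migration, was at 78.3, 30.0 and 26.4 FPKM in Rb1 samples and 38.7, 25.9 and 44.7 FPKM in CTR samples. Rb1 replicate 1 was the highest of all 6 samples, and the other 2 Rb1 samples lay inside the CTR range. The log2 fold change was 0.31 ± 0.41 with all samples and −0.29 without Rb1 replicate 1. That library was also the highest in summed endothelial markers, at 2297 CPM against 1297 and 1544 CPM in Rb1 replicates 2 and 3 and 1400 ± 127 CPM in CTR samples, and their part in the Dock8 and Csf2rb values was not tested.

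The other exchange factors and regulators lay between these ends. Vav1, which loads Rac downstream of receptor kinases, averaged 1.66 ± 0.221 FPKM in Rb1 samples and 3.15 ± 0.562 FPKM in CTR samples. Dock2, a Rac exchange factor, averaged 4.81 ± 0.524 FPKM in Rb1 samples and 9.04 ± 1.11 FPKM in CTR samples. Rac2, the blood cell form of Rac, averaged 8.17 ± 0.966 FPKM in Rb1 samples and 13.2 ± 2.97 FPKM in CTR samples. Groups did not overlap for these 3 genes, nor for Arhgap30, a GTPase-activating protein, which averaged 2.85 ± 0.194 FPKM in Rb1 samples and 4.79 ± 0.925 FPKM in CTR samples. They overlapped for Dock10, an exchange factor for Cdc42 and Rac, which averaged 4.11 ± 0.543 FPKM in Rb1 samples and 4.85 ± 0.508 FPKM in CTR samples. They also overlapped for Arhgdib, a chaperone that holds small GTPases in the cytosol, which averaged 15.9 ± 2.88 FPKM in Rb1 samples and 18.7 ± 1.53 FPKM in CTR samples.

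All 6 actin proteins were lower in every Rb1 sample than in every CTR sample, which held for 10.5% of all genes tested. Myo1f, a membrane-binding myosin motor of leukocytes, lies on chromosome 17 at 33555707 to 33607764 on the plus strand. It was at 5.90, 4.97 and 4.89 FPKM in Rb1 samples and 14.1, 12.7 and 9.98 FPKM in CTR samples. The lowest CTR sample was 1.69 times the highest Rb1 sample, and the log2 fold change was −1.18 ± 0.13. Lcp1, the actin-bundling protein L-plastin and the most abundant of this group, was at 12.6, 12.9 and 12.2 FPKM in Rb1 samples and 23.0, 26.3 and 18.3 FPKM in CTR samples. Its log2 fold change was −0.80 ± 0.15, with no overlap. Was, the WASP activator of branched actin assembly, was at 3.78, 3.91 and 4.12 FPKM in Rb1 samples and 6.53, 6.46 and 5.69 FPKM in CTR samples. With −0.61 ± 0.13 it had the log2 fold change nearest to 0 of the 6.

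Nckap1l encodes HEM1, the blood cell subunit of the WAVE complex, and averaged 10.1 ± 0.595 FPKM in Rb1 samples and 21.0 ± 3.10 FPKM in CTR samples. Coro1a, a coronin that binds actin filaments, averaged 3.42 ± 0.587 FPKM in Rb1 samples and 5.99 ± 1.08 FPKM in CTR samples. Fermt3, the integrin activator kindlin-3, averaged 8.0 ± 0.611 FPKM in Rb1 samples and 13.9 ± 2.05 FPKM in CTR samples. Summed over the 6 actin genes, the Rb1 samples were at 298, 296 and 291 CPM and the CTR samples at 581, 631 and 457 CPM. On library totals the Rb1 samples thus spread by 3.91 CPM (SD, n = 3), against 90.0 CPM in CTR samples. The scaling factors of the edgeR fit, 1.045, 0.956 and 0.958 in Rb1 samples, were not applied to these sums. So small a spread depends on that choice.

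The 4 phagocyte oxidase subunits did not overlap between the groups either, with Rb1 lower, against 10.5% of all genes tested. Cybb, the catalytic subunit, was at 8.65, 10.4 and 9.16 FPKM in Rb1 samples and 18.9, 21.0 and 15.5 FPKM in CTR samples, with a log2 fold change of −0.93 ± 0.15. Cyba, its membrane partner, was at 26.0, 20.3 and 24.2 FPKM in Rb1 samples and 40.8, 36.8 and 30.1 FPKM in CTR samples, with a log2 fold change of −0.57 ± 0.13. Both genes of the membrane complex were thus lower in each Rb1 sample than in any CTR sample. Ncf1, the cytosolic organiser subunit, was at 3.27, 5.58 and 5.06 FPKM in Rb1 samples and 7.34, 7.80 and 6.27 FPKM in CTR samples, with a log2 fold change of −0.57 ± 0.23. Ncf4, a cytosolic subunit that binds phosphoinositides, averaged 1.95 ± 0.0953 FPKM in Rb1 samples and 3.53 ± 0.684 FPKM in CTR samples.

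Of the lineage factors, Spi1, which encodes PU.1, was at 6.78, 5.82 and 5.89 FPKM in Rb1 samples and 13.5, 12.2 and 8.89 FPKM in CTR samples. The groups did not overlap, and the log2 fold change was −0.86 ± 0.15. Ikzf1, the lymphoid and myeloid factor Ikaros, was at 0.848, 0.711 and 0.534 FPKM in Rb1 samples and 1.21, 1.09 and 0.822 FPKM in CTR samples. Rb1 replicate 1 was above CTR replicate 3, and the log2 fold change was −0.54 ± 0.20.

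The remaining members were a regulator of G protein signalling and 2 genes of membrane traffic. Rgs1, which shortens chemokine receptor signals, was at 0.216, 0.233 and 0.122 FPKM in Rb1 samples and 1.61, 0.576 and 0.723 FPKM in CTR samples. It had the most negative log2 fold change of the list, −2.30 ± 0.43, and the lowest level. CTR replicate 1 was more than double either other CTR sample, and the log2 fold change without it was −1.77. Laptm5, a lysosomal membrane protein of blood cells, was at 21.0, 28.3 and 23.9 FPKM in Rb1 samples and 40.0, 39.8 and 33.2 FPKM in CTR samples, with a log2 fold change of −0.58 ± 0.16. Wdfy4, which dendritic cells need to cross-present antigen, averaged 1.96 ± 0.150 FPKM in Rb1 samples and 3.09 ± 0.508 FPKM in CTR samples.

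The members moved with the library as well as with the group. Summed over all 38, the Rb1 samples were at 2148, 1910 and 1720 CPM and the CTR samples at 2864, 2910 and 2506 CPM, a ratio of the means of 0.698. This is 0.172% to 0.291% of all counts. Dock8 alone held 611, 234 and 206 CPM of the sum in Rb1 samples and 302, 202 and 349 CPM in CTR samples. CTR replicate 3 was the lowest CTR sample for 31 of 38 members, and CTR replicate 2, the library rich in muscle transcripts, was the highest of all 6 samples for 23. The log2 fold change was closer to 0 without CTR replicate 2 for 34 members, and the median over the members was then −0.57. Leaving out 1 sample moved the log2 fold change of 12 members by over 1.5 times. Without Rb1 replicate 1, Syk was at −0.12, Inpp5d and Csf1r at −0.10, Dock10 at −0.06 and Ncf1 at −0.34, and Csf2rb and Dock8 changed sign. Without CTR replicate 2, Lcp2 was at −0.26, Plcg2 at −0.15 and Pik3cd at −0.38. Without Rb1 replicate 3, Pik3cg was at −0.27 and Arhgdib at −0.08. No Rb1 library stood below the others throughout: replicate 3 was the lowest of the 6 for 15 members, replicate 1 for 13 and replicate 2 for 8.

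**Figure D2:**
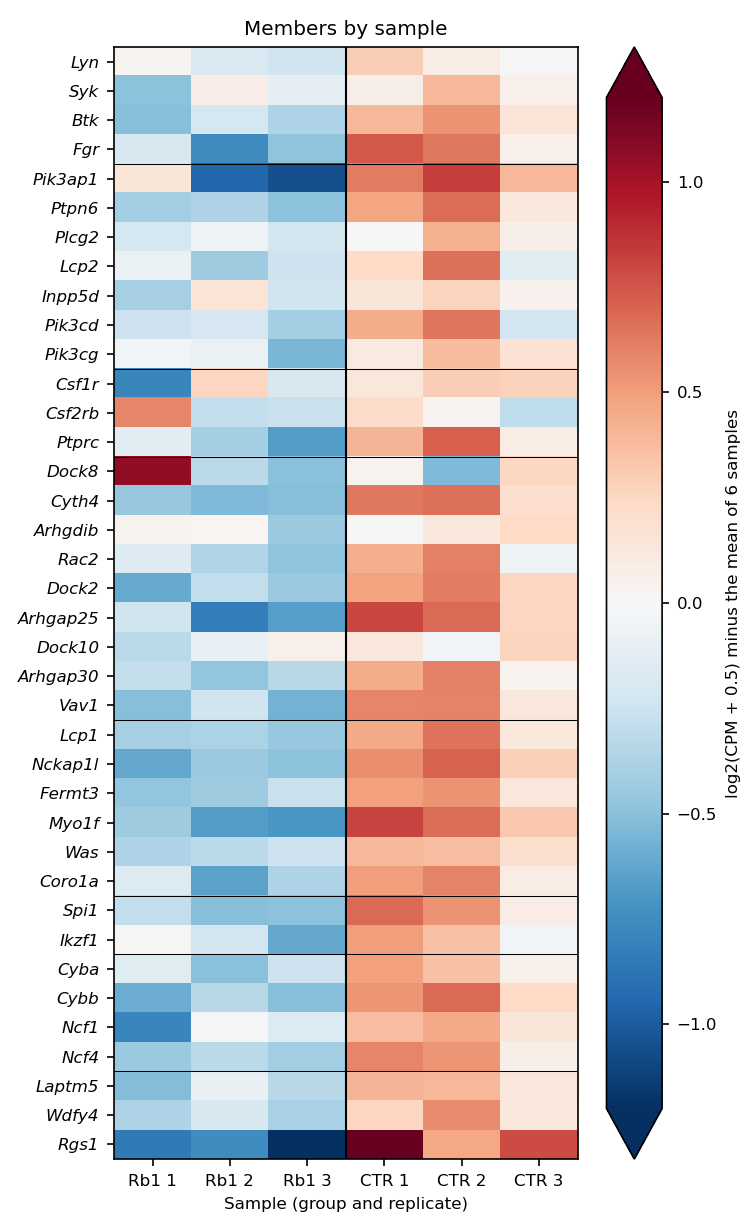
Level of each member in each sample as log2(CPM + 0.5) minus its mean over the 6 samples, with Rb1 columns left of CTR columns and roles separated by lines. CTR replicate 3 is paler than the other CTR samples for most genes, and Dock8 and Csf2rb are red in Rb1 replicate 1.

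The markers of the cell types that use these genes differed between the groups to unlike extents. The macrophage markers, 11 of 11 detected and most abundant in Lyz2, the lysozyme gene, summed to 1192, 1708 and 1649 CPM in Rb1 samples and 2160 ± 286 CPM in CTR samples (SD, n = 3). The ratio of the means was 0.702, beside 0.698 for the members, whose sum held Dock8 at 611 of 2148 CPM in Rb1 replicate 1. The median log2 fold change of the 11 macrophage genes was −0.55, from −1.16 to 0.16, with 10 negative, beside −0.68 for the members. Groups did not overlap, with Rb1 lower, for 8 of the 11, against 10.5% of all genes. The monocyte markers, 4 of 4 detected and most abundant in Ccr2, summed to 28.0 to 40.5 CPM in Rb1 samples and 43.4 to 60.3 CPM in CTR samples. The median log2 fold change of these 4 genes was −0.25, from −0.71 to 0.25. Only 1 of them did not overlap with Rb1 lower, against 10.5% of all genes. T cell markers, 7 of 7 detected, summed to 7.64 to 19.4 CPM in Rb1 samples and 9.71 to 30.4 CPM in CTR samples, and the sums overlapped. All 7 had negative log2 fold changes, with a median of −0.68. NK cell markers, 7 of 7 detected, also overlapped, at 5.57 to 14.7 CPM in Rb1 samples and 9.71 to 26.4 CPM in CTR samples, and all 7 were negative, with a median of −0.77. B cell markers, 7 of 7 detected, overlapped at 2.40 to 6.92 CPM in Rb1 samples and 2.92 to 5.18 CPM in CTR samples. Neutrophil markers, 8 of 9 detected with Ly6g at 0, overlapped at 2.45 to 10.5 CPM in Rb1 samples and 2.87 to 4.60 CPM in CTR samples. The dendritic cell markers, 6 of 6 detected, summed to 45.4 to 50.9 CPM in Rb1 samples and 38.3 to 46.5 CPM in CTR samples, a sum carried mostly by Zbtb46. The median log2 fold change of these 6 genes was −0.23, from −1.42 to 0.53. Of them, 3 did not overlap with Rb1 lower, against 10.5% of all genes.

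Mast cell markers, 6 of 6 detected, were at 26.7, 127 and 98.8 CPM in Rb1 samples and 80.7 ± 8.38 CPM in CTR samples, so that Rb1 replicate 1 was the lowest of all samples for both mast cell and macrophage markers. Eosinophil markers, 3 of 4 detected with Epx at 0, summed to 0.791 to 1.47 CPM in Rb1 samples and 1.64 to 3.19 CPM in CTR samples. Erythroid markers, 5 of 5 detected, summed to 428, 421 and 643 CPM in Rb1 samples and 410, 238 and 251 CPM in CTR samples, a ratio of the means of 1.66 with no overlap of the sums. All 5 genes had positive log2 fold changes, with a median of 0.74. DESeq2 called 1 of them higher, against 0.579% of all genes. With edgeR, 0 passed after adjustment and 4 met an unadjusted p under 0.05, for which the share of all genes higher was not counted. Adipocyte markers summed to 19570 ± 3303 CPM in Rb1 samples and 18910 ± 1547 CPM in CTR samples. Progenitor markers summed to 2713 ± 864 CPM in Rb1 samples and 2455 ± 599 CPM in CTR samples. The part of each cell type in the members' values was not tested.

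**Figure D3:**
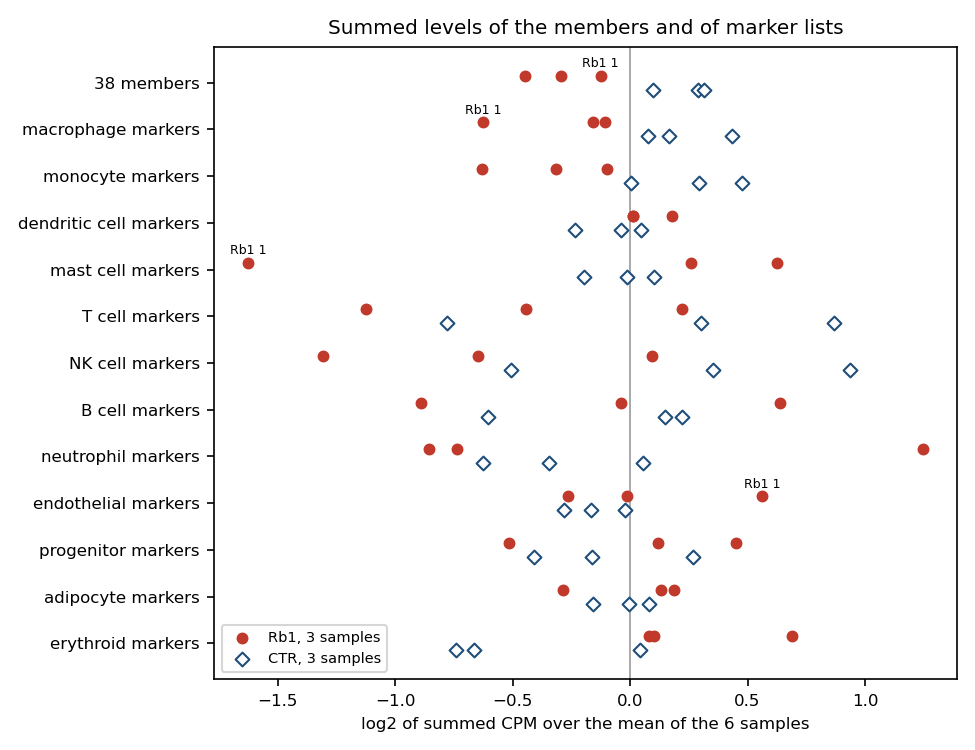
Summed CPM of the 38 members and of cell type marker lists in each sample, as log2 over the mean of the 6 samples, with filled circles for Rb1 and open diamonds for CTR; Rb1 replicate 1 is named in 4 rows. The circles lie left of the diamonds for the members, the macrophage markers and the monocyte markers, and the groups overlap for T, NK and B cell markers.

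Between members, levels per length placed Dock8 first at a mean of 40.7 FPKM over the 6 samples, then Csf1r at 39.0, Laptm5 at 31.0, Cyba at 29.7 and Cyth4 at 24.6 FPKM. Rgs1 was last at 0.579 FPKM, below Ikzf1 at 0.868 and Pik3cg at 1.18 FPKM. In all, 14 members had a mean of at least 10 FPKM and 5 a mean below 2 FPKM. Neighbours in this order mostly lay within each other's spread: Dock8 ranged from 25.9 to 78.3 FPKM and Csf1r from 21.9 to 46.4 FPKM. The order depends on the gene lengths that the FPKM values imply, which were from 0.370 times the merged annotated exons (Cyth4) to 2.60 times (Rgs1). With merged exon lengths from GENCODE M21 instead, Laptm5 came first at 45.3 FPKM and Cyth4 moved from the fifth place to 16, at 9.10 FPKM. Rank moved by more than 5 places for 7 members. Comparisons of a gene with itself across samples do not depend on the length.

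For 29 members the level could be set beside that of a gene of the same family, chosen as more widely expressed. How widely the partners are expressed was not measured here, and Tec and Nox4 are also among the further pathway genes described below. The members' median log2 fold change in these pairs was −0.72 and the partners' 0.08. The member had the more negative value in 27 of 29 pairs, and 21 partners lay within 0.25 of 0. Groups did not overlap, with Rb1 lower, for 21 of these members and 4 partners, and 2 partners did not overlap with Rb1 higher. The shares over all genes were 10.5% lower and 5.48% higher. The partner was the more abundant gene in 21 pairs. Summed over the partners, levels were 4787, 4107 and 3932 CPM in Rb1 samples and 4252, 4054 and 4415 CPM in CTR samples, with a ratio of the means of 1.01. No test was made of the pairs, and 0 of 29 partners passed 0.05 in edgeR after adjustment over all genes. An unadjusted p under 0.05 was met by 3 partners, all of them lower, against 7.54% of all genes. DESeq2 called 2 partners lower, against 2.14% of all genes.

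Several pairs are alternative subunits or forms of the same machinery, and their log2 fold changes are given side by side. Nckap1l, the blood cell WAVE subunit, had −1.0, and Nckap1, its counterpart elsewhere, had 0.24. The values were −0.61 for Was and −0.02 for Wasl, its relative N-WASP. Fermt3 had −0.75 and Fermt2, kindlin-2, had 0.23. Lcp1 had −0.80 and Pls3, T-plastin, had 0.09. Among enzymes, Ptpn6 had −0.83 and Ptpn11, the phosphatase SHP-2, had 0.17, and Cybb had −0.93 and Nox4, the oxidase of other tissues, had 0.08. Arhgap25 had −1.14 and Arhgap24 had 0.30, and Dock2 had −0.86 and Dock1 had 0.20.

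Some partners had negative values as well. Myo1e, the second class I myosin of the pair with Myo1f, was at 7.61, 5.34 and 5.24 FPKM in Rb1 samples and 11.7, 12.1 and 10.3 FPKM in CTR samples, with a log2 fold change of −0.87. Tec, the kinase related to Btk, averaged 1.36 ± 0.171 FPKM in Rb1 samples and 2.30 ± 0.238 FPKM in CTR samples, with −0.71. Rgs2 had −0.92 beside Rgs1. In 2 pairs the partner had the more negative value, and of these Rac2 had −0.65 and Rac1 had −0.80. Rac1 was at 52.6, 14.8 and 14.7 FPKM in Rb1 samples and 49.9, 45.5 and 47.9 FPKM in CTR samples, so its value came from Rb1 replicates 2 and 3.

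**Figure D4:**
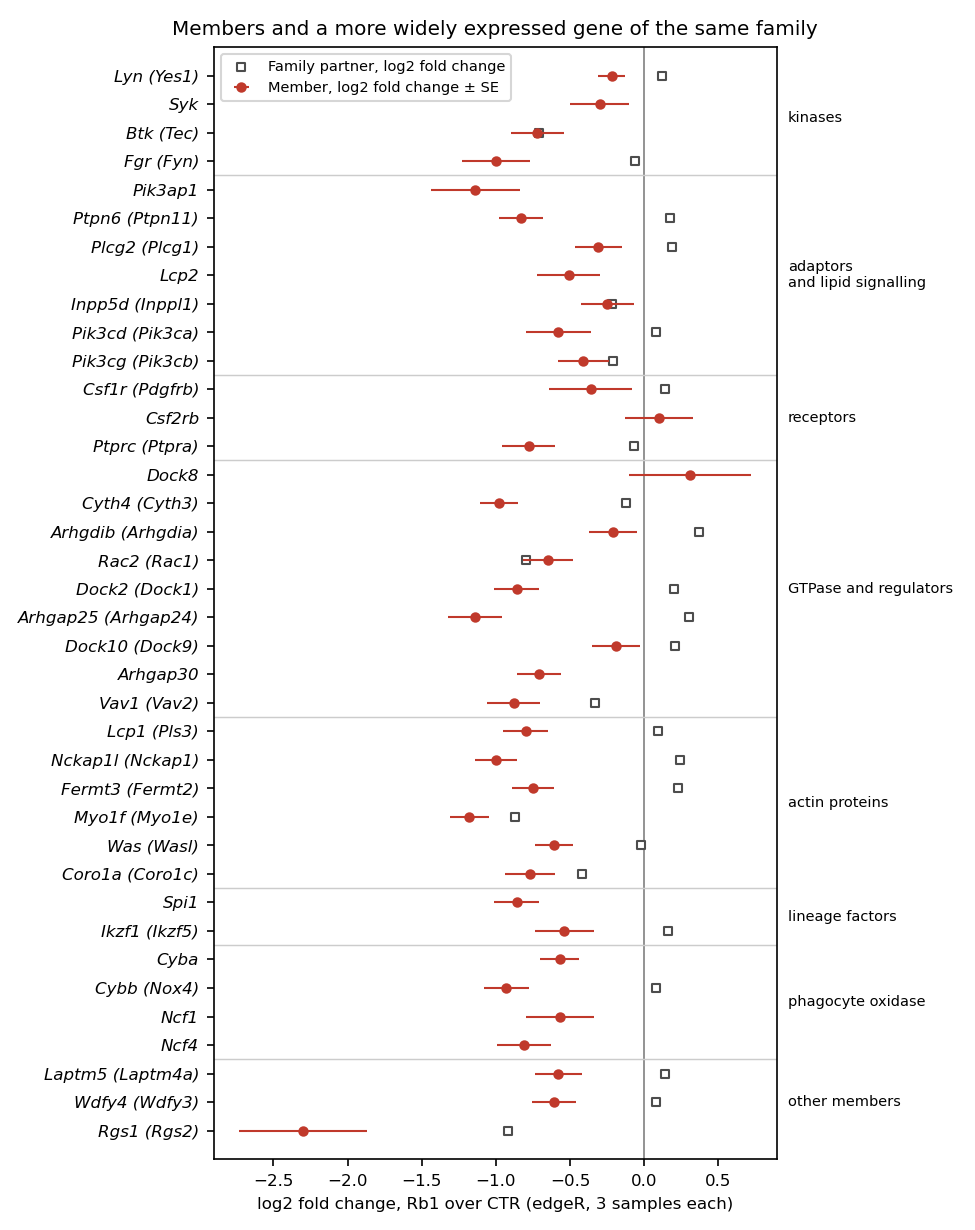
Log2 fold change, Rb1 over CTR, of each member (circle with SE) and of its family partner (square, named in brackets on the axis), by role, for 28 of the 29 partners. Member values lie left of 0 for 36 of 38 genes, while 20 of the 28 partners drawn lie within 0.25 of 0.

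Genes of the same pathways that are not in the list were followed in 6 further groups, 96 genes of which 86 were tested. With edgeR, 0 passed after adjustment over all genes in either direction, and an unadjusted p under 0.05 was met by 40 lower genes, against 7.54% of all genes, and 0 higher genes. DESeq2 called 19 lower, against 2.14% of all genes, and 0 higher. The median log2 fold change was −0.53, with 73 of 86 negative, and 40 did not overlap with Rb1 lower and 1 with Rb1 higher, against 10.5% and 5.48% of all genes. Among 31 tested kinases, adaptors and phosphatases, 30 were negative, with a median of −0.68. Blnk, an adaptor of Syk and Btk, averaged 1.95 ± 0.185 FPKM in Rb1 samples and 4.30 ± 0.846 FPKM in CTR samples. Dok2, an adaptor that dampens kinase signals, averaged 4.23 ± 0.286 FPKM in Rb1 samples and 7.88 ± 0.844 FPKM in CTR samples. Fcer1g, the signalling chain of several Fc receptors, averaged 23.8 ± 1.26 FPKM in Rb1 samples and 35.9 ± 4.87 FPKM in CTR samples.

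Of 11 further actin proteins, 10 were negative, with a median of −0.62. Capg, which caps actin filaments, averaged 13.0 ± 0.767 FPKM in Rb1 samples and 20.7 ± 2.46 FPKM in CTR samples, and Myo1g, another leukocyte myosin, averaged 1.91 ± 0.111 FPKM in Rb1 samples and 3.80 ± 0.907 FPKM in CTR samples. Of 14 GTPases and regulators, 13 were negative, with a median of −0.45, and Arhgap9 averaged 2.09 ± 0.214 FPKM in Rb1 samples and 3.82 ± 0.843 FPKM in CTR samples. Of 14 further transcription factors tested, 11 were negative, with a median of −0.44. Irf8, a factor of monocytes and dendritic cells that acts with PU.1, averaged 3.14 ± 0.695 FPKM in Rb1 samples and 6.27 ± 1.28 FPKM in CTR samples.

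The ligands and receptors around the members were less uniform. Of 10 tested, 7 were negative, with a median of −0.31. Csf2ra, the alpha chain that pairs with Csf2rb, was at 11.1, 11.9 and 11.2 FPKM in Rb1 samples and 29.5, 24.9 and 18.2 FPKM in CTR samples, beside the Csf2rb values given above. The groups did not overlap for Csf2ra, and its log2 fold change was −1.04 ± 0.17. Il34, a ligand of Csf1r, averaged 5.23 ± 0.641 FPKM in Rb1 samples and 4.16 ± 0.395 FPKM in CTR samples, with a log2 fold change of 0.37 ± 0.16. Csf1, the other ligand of Csf1r, was named after its values were seen and averaged 9.10 ± 0.763 FPKM in Rb1 samples and 9.09 ± 0.920 FPKM in CTR samples. Among the other oxidase subunits, 2 of 6 tested were negative, with a median of 0.20.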

How the data were processed

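Per the file headers, the authors deposited whole-number read counts per Ensembl gene and FPKM values for the 6 samples. Per the submitters' processing notes, CASAVA 1.8, TopHat2 2.0.6 and the build mm10 were used. The counting tool, annotation release and strand setting were not stated; mm10 is GRCm38. The deposited FPKM equalled count over gene length and column total (spread up to 0.00984% over 13169 genes). Without a stated strand setting, 11 members that share exon positions with another gene are uncertain to that extent: Lyn, Lcp2, Ptpn6, Csf1r, Csf2rb, Dock2, Arhgdib, Coro1a, Lcp1, Fermt3 and Ncf1.

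Symbols and coordinates came from GENCODE M21 on GRCm38, and 21933 of 22040 genes had a symbol. Rb1 was tested against CTR with edgeR 4.0.16 (R 4.3.3; TMM, a minimum count of 10 and total of 15, quasi-likelihood test, no covariates) over 14093 genes, with Benjamini-Hochberg adjustment at 0.05. The biological coefficient of variation was 24.8%. The fit was tested on simulated data. CPM used the column total. Alternatives were DESeq2 1.42.0, other scalings and filters, a replicate block and leaving out samples. The chi-square per degree of freedom between any 2 samples was at least 30.4, so all were kept as separate samples. At these depths a count of 0 allows up to 3 counts, or 0.122 to 0.194 CPM, for counting error only.

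The members and lists were chosen with earlier results of these data known. All members are named with both group means or all samples, and per-sample values are given for Myo1f, Cyth4 and each role's lowest and highest log2 fold change and highest FPKM. Up to 4 genes with the smallest p were named from each further list. A few genes that this takes are not reported here.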

Additional observations from a re-analysis of the deposited data

How the results depend on the processing

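No alternative run gave an edgeR call among the members: 0 of 38 passed under RLE size factors, library totals, no filter, a mean of at least 1 CPM, the replicate block or any left-out sample. Over all genes edgeR called 1 gene, and 1 to 4 with a sample left out. DESeq2 called 380 genes, 23 members and 19 other pathway genes. Of all genes it tested, 2.14% were called lower and 0.579% higher. The members were drawn from this same contrast, so nothing is read from these calls. The members' median of −0.68 lay between −0.81 and −0.57 with a sample left out. It was −0.72 on library totals, which moved the median of all genes from 0.01 to −0.04. The log2 ratio of the summed CPM was −0.52, and −0.70 as a mean over members of log2(CPM + 0.5). Of 494 recomputed member values 6 changed sign. With a sample left out, Csf2rb lay between −0.20 (without Rb1 replicate 1) and 0.23, also negative without CTR replicate 3 at −0.02, and Dock8 between −0.29 (without Rb1 replicate 1) and 0.57. Leaving out CTR replicate 2 and Rb1 replicate 1 together, chosen after seeing the data, gave 10 genes called, a median of −0.57, and 0.01 for Syk, −0.17 for Csf2rb and −0.48 for Dock8. The cause was not tested. With the replicate block the median was −0.66 with 0 members called. Same-numbered samples correlated at 0.136, −0.0784 and 0.000921 in their deviations. With 3 samples a group, such values cannot show whether the samples were paired by number. With 3 samples a group, small differences could not be resolved at this depth. The lowest count of any member was 53, and counting error was not set apart from the spread between samples for single members.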

Other observations

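Cyth4 and Rac2, both members, are neighbours on chromosome 15, 24.3 kb apart in GRCm38, in a 377 kb stretch from 78244801 to 78622019 that also holds Ncf4 and Csf2rb. The stretch was picked after its values were seen. It holds 13 protein-coding genes of the table, 10 of them tested. Ncf4, Rac2 and Cyth4 had log2 fold changes of −0.81, −0.65 and −0.98, and Il2rb, a receptor chain of T and NK cells in between, had −0.64. The other 6 tested genes lay nearer to 0: Csf2rb, a member, at 0.10, Csf2rb2 at −0.26, Mpst at −0.13, C1qtnf6 at −0.12, Kctd17 at 0.12 and Tst at 0.28.

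For 2 family partners a single sample stood apart. Arhgdia, partner of Arhgdib, was at 148, 129 and 127 FPKM in Rb1 samples and 61.6, 120 and 138 FPKM in CTR samples, so CTR replicate 1 stood far below the rest. Coro1c, partner of Coro1a, was at 14.4, 12.6 and 5.39 FPKM in Rb1 samples and 17.4, 13.0 and 13.8 FPKM in CTR samples, so Rb1 replicate 3 stood below the rest.

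Blk, a Src-family kinase of B cells named after its values were seen, was too low to be tested. It was at 0.218, 0.176 and 0.138 FPKM in Rb1 samples and 0.0532, 0.0433 and 0.0336 FPKM in CTR samples, opposite in direction to Fgr. The groups did not overlap, with Rb1 higher, which also held for 5.48% of the genes tested.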
